A study of Mus musculus with 6 samples.

Results

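The genes described here are 8 that encode proteins of the growing microtubule end: Mapre1, Mapre2, Mapre3, Clasp1, Clasp2, Clip1, Clip2 and Ckap5. They were selected by name from 54418 gene identifiers of a count table, and all 8 had a row in it. Mapre2 heads the set because its difference between Control and GATA6KO was already known when the set was drawn up. The values of that comparison are therefore given for these 8 genes as a description, without p-values. RNA was measured in mouse organoids, self-organising epithelial cultures, of a line that the labels call AKP, without saying what the letters stand for. There were 3 libraries with the genotype Control and 3 with the genotype GATA6KO, and AKP is common to both groups. GATA6 is a zinc-finger transcription factor of endoderm-derived epithelium, and the title of the series ties its loss to lineage plasticity and metastasis of colorectal cancer. The labels give neither the position of the lesion nor the Cre or guide used, and they do not say whether replicates were separate cultures or clones. The p-values below thus set the difference between groups only against the spread among these libraries. How much of that spread is technical is not known.

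Microtubules are polymers of alpha- and beta-tubulin that grow and shrink mostly at the end called plus. EB proteins, encoded by the Mapre genes, recognise the growing end by themselves and bring most other plus-end proteins to it. Among those, CLASPs stabilise microtubules and tie them to the cell cortex, and CLIPs link them to dynein-dynactin and to membranes. Ckap5, also a protein of the growing end, is a polymerase that adds tubulin. In polarised epithelia many microtubules run along the apical-basal axis, with minus ends held below the apical surface.

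Totals were 22973245 to 31328415 estimated counts per library. Values of single libraries are listed below in the order of replicates 1, 2 and 3, and CPM stands for counts per 1000000 after TMM scaling. The targeted gene Gata6 was at 25.3, 23.2 and 28.01 CPM in the Control libraries, against 14.3, 16.0 and 8.24 CPM in the GATA6KO ones. The log2 fold change of GATA6KO against Control came to -0.99 ± 0.25 (SE; edgeR adjusted p = 0.0486). Gata6 was not called without Control replicate 1, 2 or 3 (adjusted p = 0.149, 0.128 and 0.181) or with library totals in place of TMM (adjusted p = 0.0573). GATA6KO libraries differed more among themselves than Control libraries did, with a median SD per gene of 0.251 in log2 CPM, where Control had 0.0890. The median gene of chromosome 14 in the second GATA6KO library was 0.75 log2 units below Control (-0.75), against -0.07 in the first and 0.05 in the third. None of the 8 genes is on that chromosome. The 7 epithelial markers, among them Epcam, Cdh1 and Vil1, summed to 9585.5 to 10396.4 CPM in Control and 6565.9 to 7686.8 CPM in GATA6KO, with 3 of 7 called lower (5.47% of all genes tested were) and 0 higher. These 3 were Cdh1, Krt8 and Krt18, and all 3 were lost without Control replicate 2 or 3 (adjusted p = 0.112 and 0.1085 for Cdh1, 0.117 and 0.124 for Krt8, and 0.0565 and 0.0614 for Krt18), Cdh1 and Krt8 also without Control replicate 1 (0.1265 and 0.103). All 7 had GATA6KO values below every Control value, where groups did not overlap for 40.8% of all genes tested. DESeq2, which called 22% of all genes, also called Epcam, Krt19 and Cdx2 (adjusted p = 0.0287, 0.0128 and 0.00782) but not Vil1 (0.253). Markers of fibroblasts and muscle, of endothelium and of neural and endocrine cells each summed to at most 0.834 CPM in any library, and 0 of those 15 genes was expressed enough to test, although each had a count in some library. The 4 immune markers summed to 10.9 to 14.3 CPM in Control and 3.002 to 5.38 CPM in GATA6KO, nearly all of it Cd68, a lysosomal protein. Cd68, the only immune marker tested, was called lower (log2 fold change -1.79, edgeR adjusted p = 0.019). It was not called without Control replicate 1, 2 or 3 (adjusted p = 0.0724, 0.0718 and 0.0958). The part of these shifts in the results below was not tested.

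Mapre2 was about 7 times lower in GATA6KO than in Control, and the other 7 genes, with log2 fold changes from -0.24 to 0.58, were not called. Mapre2 (ENSMUSG00000024277, mm10 chromosome 18, 23752333 to 23893861, plus strand) encodes EB2, an EB protein that binds growing ends more weakly than EB1 and has been linked to the reorganisation of microtubules in polarising epithelial cells. The Control libraries held 592, 741 and 878 of its counts, and the GATA6KO libraries 102, 120 and 128. Scaled, these were 25.9, 25.7 and 29.3 CPM against 3.41, 3.93 and 4.27 CPM. The groups did not overlap, and GATA6KO replicates 1 to 3 held 12.7%, 14.6% and 15.8% of the mean Control level. Means were 27.0 ± 2.01 and 3.87 ± 0.433 CPM (SD, n = 3 each), a fitted log2 fold change of -2.80 (SE 0.15) and 6.96-fold lower in GATA6KO. In bulk RNA, fewer cells that make a transcript and less transcript per cell cannot be told apart.

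Among the genes tested, 805 were called lower, and 72 of these had a larger fold decrease than Mapre2. Of the 507 called decreases with a Control mean at least as high as that of Mapre2, 14 were larger. Since Mapre2 was chosen with its difference known, nothing is read from these ranks. The 3 GATA6KO libraries lay close together for this gene, with an SD of 0.145 on the log2 scale. Leaving out each library in turn gave log2 fold changes from -2.88 to -2.72. Gata6 itself kept a larger part of its Control level in each GATA6KO library than Mapre2 did.

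**Figure D1:**
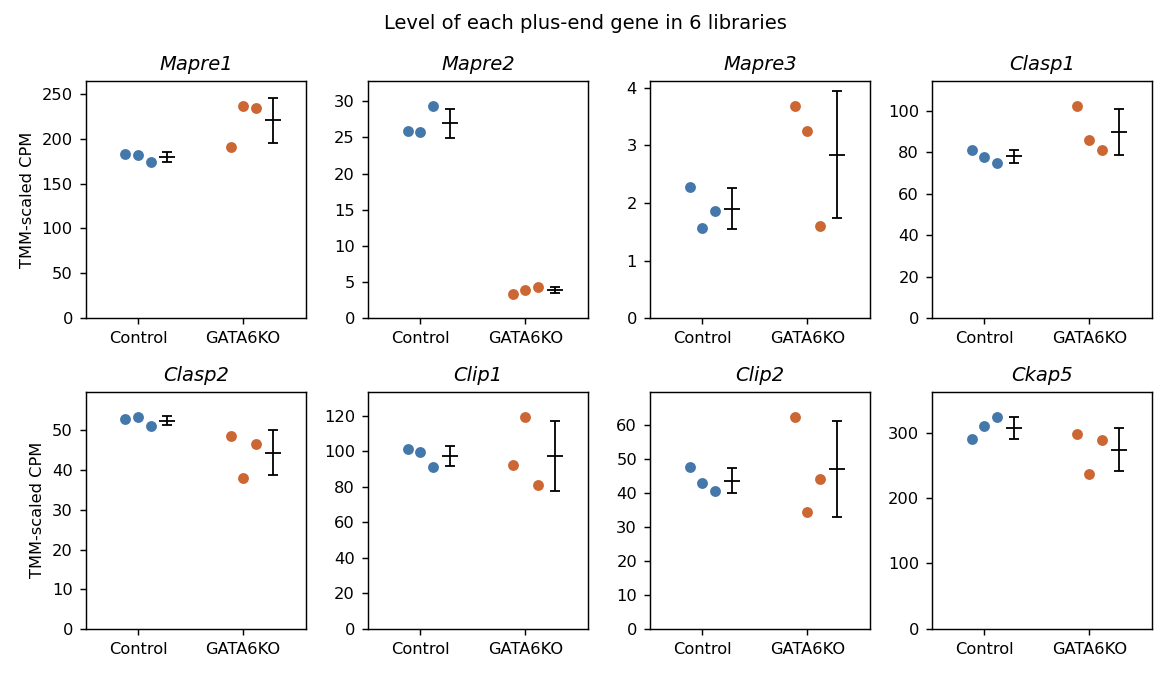
Level of each of the 8 plus-end genes in 6 libraries, as TMM-scaled CPM on linear axes from 0. Points are libraries, and the bar beside each group is the mean with its SD (n = 3). The Mapre2 points of GATA6KO lie between 3.41 and 4.27 CPM, below all Control points, while for Mapre3, Clip1, Clip2 and Ckap5 the groups overlap.

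By edgeR's quasi-likelihood test 1 of the 8 genes, Mapre2, met the adjusted threshold of 0.05, where 12.4% of all 14714 genes tested did, 6.92% as higher and 5.47% as lower. All 8 had passed the filter on low counts. With library totals in place of TMM, 1302 of all genes were higher and 680 lower, and the median log2 fold change moved from 0.02 to 0.09. Because Mapre2 was picked with this comparison in view, nothing is read from that count. Of the other 7, edgeR called 0, with 1 at an unadjusted p under 0.05 (Mapre1), and DESeq2 and limma-voom each called 0. Over all genes the shares were 31.7% at an unadjusted p under 0.05, 22% called by DESeq2 and 12.1% called by limma-voom. The median log2 fold change over the 8 genes was 0.05, beside 0.02 over all genes tested. Group values did not overlap for 4 of the 8 (Mapre1, Mapre2, Clasp1 and Clasp2), where this held for 40.8% of all genes tested.

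Mapre1 (ENSMUSG00000027479, chromosome 2, 153741274 to 153773310) encodes EB1, the main recruiter of plus-end proteins in most cells. It measured 183, 182 and 174 CPM in Control and 191, 236 and 234 CPM in GATA6KO. All GATA6KO libraries were above all Control libraries, GATA6KO replicate 1 by the least, and the log2 fold change was 0.30 (SE 0.11). Mapre1 met the threshold without GATA6KO replicate 1, where its log2 fold change was 0.39, so that 2 of the 8 genes were then called. In that fit 4360 of all 15136 genes tested were called, so nothing is read from this count either. Mapre3 (ENSMUSG00000029166, chromosome 5, 30814641 to 30866106) encodes EB3, which is best known from neurons and muscle. It was scarce, at 52, 45 and 56 counts in Control against 110, 99 and 48 in GATA6KO. Its groups overlapped because GATA6KO replicate 3 (1.601 CPM) lay inside the Control range of 1.56 to 2.28 CPM. The log2 fold change was 0.58 with an SE of 0.37, the widest error of the 8 genes.

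Levels of different genes were compared per kilobase of exon. On that scale Mapre2 made up 9.56%, 9.58% and 11.2% of the summed EB level in Control, and 1.29%, 1.22% and 1.36% in GATA6KO. Mapre1 went from 87.8% ± 1.01 to 95.9% ± 1.27 of that sum (SD, n = 3 each), and Mapre3 from 2.10% ± 0.380 to 2.86% ± 1.31. The EB mixture in GATA6KO thus held a smaller Mapre2 share in each library, and nearly all of the remainder was Mapre1. As parts of a sum, the other shares together rise when that of Mapre2 falls, so the Mapre1 share is not a separate result. The sum itself was 26.2 ± 0.492 CPM per kilobase in Control and 29.4 ± 3.10 in GATA6KO. GATA6KO replicate 1 (25.86) lay inside the Control range of 25.64 to 26.61. Many exons of these genes are alternative, and with the length of the annotated principal transcript in place of the union of exons the Mapre2 share was 20.9% ± 1.69 and 2.97% ± 0.165. The Mapre2 share in Control therefore depends on the length used by about a factor of 2, while the order of the groups did not change. With that length the sum was 32.11 ± 0.335 CPM per kilobase in Control and 32.41 ± 3.235 in GATA6KO, so the higher mean sum in GATA6KO depends on the length used. The fold between groups does not depend on length if the mixture of forms is alike, and the table gives no values per transcript form.

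**Figure D2:**
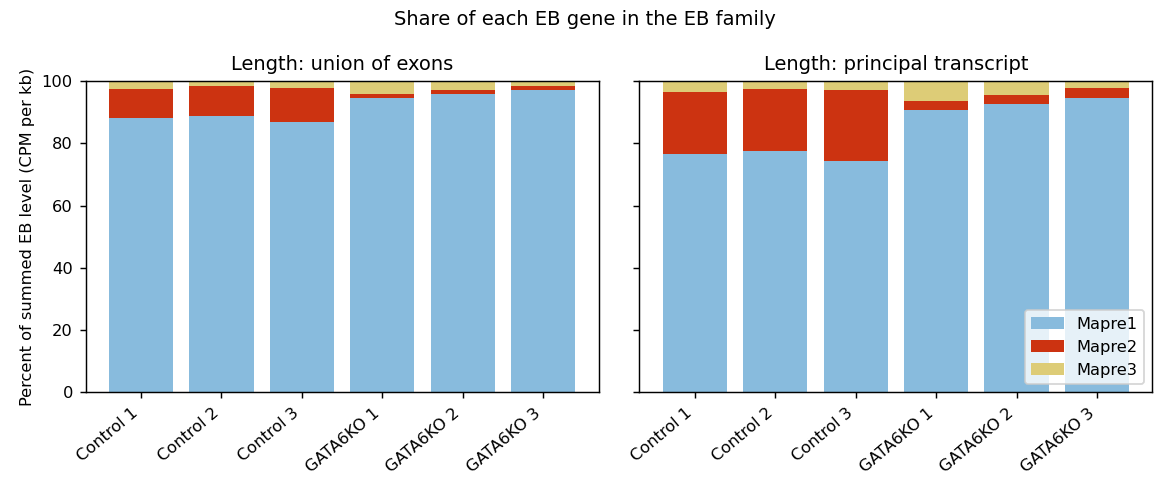
Percent of the summed EB level (CPM per kilobase) that came from Mapre1, Mapre2 and Mapre3 in each of 6 libraries, with gene length taken as the union of exons (left) or the principal transcript (right). The Mapre2 segment shrinks from about 10.1% to 1.29% (left) and from 20.9% to 2.97% (right).

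Little of the annotated EB sequence was shared with other genes. Of 10177 stretches of 31 bases in annotated Mapre2 transcripts, 14 (0.138%) also occurred in a transcript of another gene, against 291 of 7779 for Mapre1 (3.74%) and 0 of 3509 for Mapre3. The largest overlap of Mapre1 was with the predicted gene Gm8545.

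The CLASP genes had small differences of opposite sign. Clasp1 (ENSMUSG00000064302, chromosome 1, 118389058 to 118612678) stood at 81.2, 77.7 and 75.0 CPM in Control and at 102.0, 85.8 and 81.2 CPM in GATA6KO. Clasp2 (ENSMUSG00000033392, chromosome 9, 113741473 to 113919682) had 52.9, 53.4 and 51.1 CPM in Control and 48.6, 38.0 and 46.5 CPM in GATA6KO. Clasp1 was higher and Clasp2 lower in every GATA6KO library, although the highest Control and the lowest GATA6KO value of Clasp1 were nearly equal. Their log2 fold changes were 0.20 (SE 0.11) and -0.24 (SE 0.11), and neither was called. A ratio within a library does not depend on scaling: counts of Clasp2 per count of Clasp1 came to 0.652, 0.686 and 0.682 in Control and 0.476, 0.443 and 0.573 in GATA6KO. Every GATA6KO ratio lay below every Control ratio. This ratio was chosen after its values were seen and carries no test.

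The CLIP genes, whose products hold CAP-Gly domains that bind EB proteins and tubulin tails, showed no common direction. Clip1 (ENSMUSG00000049550, chromosome 5, 123577795 to 123684618) measured 101.2, 99.8 and 91.0 CPM in Control and 92.0, 119 and 81.0 CPM in GATA6KO replicates 1 to 3. Clip2 (ENSMUSG00000063146, chromosome 5, 134489383 to 134552434) had 47.6, 42.9 and 40.4 CPM in Control and 62.3, 34.5 and 44.2 CPM in GATA6KO. GATA6KO replicate 2 was the highest library for Clip1 and the lowest for Clip2, so that the GATA6KO values enclosed the Control values for both. The log2 fold changes were 0.0012 (SE 0.15) and 0.11 (SE 0.21), and the sign of each flipped when single libraries were left out. Ckap5 (ENSMUSG00000040549, chromosome 2, 91526762 to 91620664) had 290.0, 309 and 324 CPM in Control and 297, 236 and 288 CPM in GATA6KO, with a log2 fold change of -0.17 (SE 0.11). Its groups overlapped through GATA6KO replicate 1. That these genes were not called does not show that their levels were alike.

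Per kilobase of exon in Control, Ckap5 was highest at 32.5 ± 1.79 CPM and Mapre1 next at 22.98 ± 0.654 (SD, n = 3). Clip2 (8.41 ± 0.701) and Clip1 (7.86 ± 0.446) followed, and then Clasp1 (3.57 ± 0.142) and Clasp2 (3.41 ± 0.0769). Within each of these pairs the ranges over Control libraries overlapped. With this length, Clip2 was nevertheless above Clip1, and Clasp1 above Clasp2, within each Control library. Mapre2 was at 2.64 ± 0.197 and Mapre3 lowest at 0.550 ± 0.104. In GATA6KO the first 6 places had the same order, with Ckap5 (28.97 ± 3.47) and Mapre1 (28.2 ± 3.25) no longer apart beyond their spread, and Mapre2 (0.380 ± 0.0424) came below Mapre3 (0.821 ± 0.317). With principal transcript lengths the top pair and the bottom pair were the same in both groups, but Clip1, Clasp2, Clasp1 and Clip2 followed in that order in Control. On that scale Mapre2 was above Mapre3 in GATA6KO replicate 3 (1.06 against 0.792 CPM per kilobase) and below it in replicates 1 and 2.

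The wider microtubule machinery was taken as 107 genes in 7 lists by function, of which 90 were tested. The lists were drawn up with earlier results of these data known, so their counts are a description and no list is set apart from other genes by them. Of these, 6 rose and 7 fell (14.4% called, beside 12.4% of all genes tested), and the median log2 fold change was 0.08. The other 17 had at most 0.970 CPM in any library. Of the 13 called genes, 4 (Nav2, Tuba1a, Mapt and Eml1) were called without each library in turn. With library totals in place of TMM, 10 rose and 5 fell. The lists hold 3 genes of chromosome 14 (Slain1, Mzt1 and Stmn4), and 0 of them was called. Over all genes, edgeR called 1823 with all libraries and 425, 389 and 332 without Control replicates 1, 2 and 3. Without GATA6KO replicates 1, 2 and 3 it called 4360, 2344 and 1834. Between 15128 and 15244 genes were tested in the fits with a library left out. Counts per list with a library left out, given below, stand beside these shifts of the whole table.

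Among 20 other plus-end proteins, 19 were tested, 1 rose and 1 fell, with a median log2 fold change of 0.01. The calls numbered 1 without any one Control library, and 4, 3 and 6 without GATA6KO replicates 1, 2 and 3. Nav2, a neuron navigator protein that rides on growing ends, rose from 26.6, 24.0 and 22.2 CPM in Control to 92.8, 60.5 and 75.9 CPM in GATA6KO (log2 difference 1.66 ± 0.17 SE, adjusted p = 0.00327). Dst encodes giant spectraplakins, of which different forms bind microtubules or tie keratin filaments to hemidesmosomes, and counts per gene do not tell these forms apart. Dst fell from 118, 127 and 135 CPM to 41.4, 54.8 and 21.2 CPM (log2 difference -1.70 ± 0.32 SE, adjusted p = 0.0206). For neither gene did the groups overlap. Dst was not called without Control replicate 1, 2 or 3 (adjusted p = 0.076, 0.0815 and 0.0964) or with no filter on low counts (adjusted p = 0.0757). Apc, a tumour suppressor that travels on plus ends with EB1, stood at 195, 189 and 188 CPM in Control and at 193, 198 and 182 CPM in GATA6KO (log2 difference 0.01 ± 0.08 SE, adjusted p = 0.969), and its groups overlapped.

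Of 8 genes for capture of microtubules at the cortex, edgeR called 0 (4 at an unadjusted p under 0.05, 4 by DESeq2 and 0 by limma-voom, beside the shares of all genes given above). It called 2, 3 and 2 of them without GATA6KO replicates 1, 2 and 3, and 1 with library totals. The most abundant were Iqgap1, a scaffold that joins actin to CLIP proteins, and Phldb2, a cortical anchor of CLASPs. Iqgap1 averaged 822 ± 25.2 CPM in Control and 577 ± 115 CPM in GATA6KO (SD, n = 3 each; log2 fold change -0.51, adjusted p = 0.0713). Phldb2 was at 140 ± 11.5 and 100.3 ± 17.1 CPM (log2 difference -0.48, adjusted p = 0.0686). Both had groups that did not overlap, both were called by DESeq2 (adjusted p = 0.0137 and 0.0179), and they were called by edgeR without GATA6KO replicate 2 (Iqgap1, adjusted p = 0.0129) or 3 (Phldb2, adjusted p = 0.0215).

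Tubulin genes had 1 higher and 1 lower of 11 tested (13 in the list, median log2 fold change -0.18). The calls numbered 1 without any one Control library or GATA6KO replicate 2, and 4 without GATA6KO replicate 1. Tuba1a, an alpha-tubulin isotype typical of neurons, rose from 25.8, 27.6 and 23.1 CPM to 88.3, 64.6 and 113 CPM (log2 difference 1.80 ± 0.21 SE, adjusted p = 0.00478). Its sequence is a limit, since 78.6% of its 31-base stretches also occur in other genes, Tuba1c first, so that estimated counts depend on how reads were divided. Tubb4a, a beta-tubulin isotype of the brain, fell from 2.84 ± 0.373 to 0.655 ± 0.505 CPM (log2 difference -2.11 ± 0.53 SE, adjusted p = 0.0475). It was not called without Control replicate 1, 2 or 3 (adjusted p = 0.135, 0.137 and 0.17) or without GATA6KO replicate 2 or 3 (adjusted p = 0.0609 and 0.099). The summed neural and endocrine markers were 0.208 to 0.307 CPM in Control and 0.100 to 0.467 CPM in GATA6KO.

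Of 21 genes whose proteins bind along the microtubule lattice, 14 were tested, 2 rose and 4 fell, with a median log2 fold change of -0.16. The calls in this list numbered 3, 2 and 2 without Control replicates 1, 2 and 3, and 7, 5 and 4 without GATA6KO replicates 1, 2 and 3. Mapt, which encodes tau, fell from 8.19, 7.52 and 9.34 CPM to 1.61, 1.61 and 1.67 CPM (log2 difference -2.36 ± 0.20 SE, adjusted p = 0.00194), and its 3 GATA6KO libraries were nearly equal. Map2, a relative of tau, rose from 3.07, 1.87 and 2.33 CPM to 15.9, 17.7 and 8.01 CPM (log2 difference 2.52 ± 0.36 SE, adjusted p = 0.00876). Mapt and Map2 thus moved in opposite directions, each with groups that did not overlap. Map2 was not called without Control replicate 2 or 3 (adjusted p = 0.0524 and 0.0632).

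Of 4 EML genes, which encode microtubule-associated proteins with beta-propeller domains, 1 rose and 1 fell. Eml1 rose from 43.2 ± 2.93 to 145 ± 35.6 CPM (log2 difference 1.75 ± 0.19 SE, adjusted p = 0.00426). Eml4 fell from 370 ± 22.5 to 174 ± 52.0 CPM (log2 difference -1.09 ± 0.21 SE, adjusted p = 0.0239). Eml4 was not called without Control replicate 1, 2 or 3 (adjusted p = 0.085, 0.0824 and 0.103) or GATA6KO replicate 3 (adjusted p = 0.0585). Eml2 and Eml3 were not called, at log2 differences of -0.96 ± 0.33 SE and 0.26 ± 0.11 SE (adjusted p = 0.103 and 0.17), though DESeq2 called Eml2 (adjusted p = 0.0197). The remaining called genes of the list, named after their values were seen, were Map4 (-0.55 in log2, adjusted p = 0.0323) and Mtus1 (-0.44 in log2, adjusted p = 0.0437). Both were lost without Control replicate 1, 2 or 3 (adjusted p = 0.124, 0.102 and 0.132 for Map4, and 0.153, 0.151 and 0.148 for Mtus1) and without GATA6KO replicate 2 (0.0519 and 0.0559), and Map4 also without replicate 3 (0.0628). Mtus1 was lost, too, with library totals (adjusted p = 0.0681) and with no filter (adjusted p = 0.052).

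**Figure D3:**
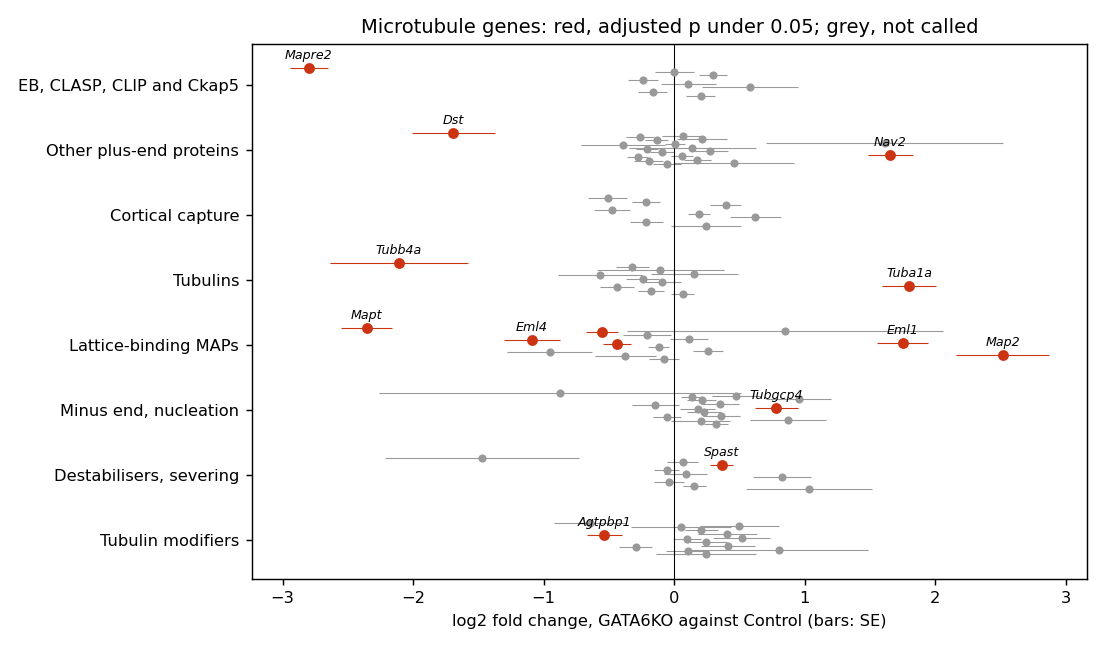
Log2 fold change of GATA6KO against Control with its SE for every tested gene of the 8 plus-end genes and the 7 wider lists (rows). Red points have an adjusted p under 0.05, grey points do not, and vertical offsets within a row carry no meaning. Mapre2 lies at -2.80, and the called lattice-binding genes lie on both sides of 0, from Mapt at -2.36 to Map2 at 2.52.

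The remaining lists each had a single called gene with all libraries. Of 15 minus-end and nucleation genes, all tested, 1 rose and 0 fell (median log2 fold change 0.23). It was Tubgcp4, a subunit of the gamma-tubulin ring complex, from 68.1 ± 0.165 to 117 ± 27.8 CPM (log2 difference 0.78 ± 0.17 SE, adjusted p = 0.0292). Of 14 destabilising and severing genes, 9 were tested, and 1 rose and 0 fell (median 0.09). Spast, which encodes the severing enzyme spastin, went from 58.0 ± 0.648 to 74.6 ± 5.65 CPM (log2 difference 0.36 ± 0.09 SE, adjusted p = 0.0449). Of 16 tubulin-modifying genes, 14 were tested, and 0 rose and 1 fell (median 0.22). Agtpbp1, a deglutamylase that trims tubulin tails, went from 37.7 ± 1.21 to 26.0 ± 4.31 CPM (log2 difference -0.54 ± 0.14 SE, adjusted p = 0.0493).

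Without GATA6KO replicates 1, 2 and 3 the calls numbered 6, 3 and 2 among the minus-end genes, 3, 2 and 1 among the destabilising genes and 2, 3 and 0 among the modifying genes. DESeq2 called 4, 2 and 1 in these lists, and edgeR with library totals 3, 2 and 0. The 3 calls named above were lost without Control replicate 1, 2 or 3, at adjusted p = 0.117, 0.1305 and 0.144 (Tubgcp4), 0.161, 0.185 and 0.2 (Spast) and 0.17, 0.158 and 0.198 (Agtpbp1). Spast missed the threshold, too, in the absence of GATA6KO replicate 3 (adjusted p = 0.0645), by limma-voom (0.0512) and with no filter (0.0684). Agtpbp1 missed it in the absence of GATA6KO replicate 1 or 3 (adjusted p = 0.0544 and 0.0851), with library totals (0.0809) and with no filter (0.0513).

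**Figure D4:**
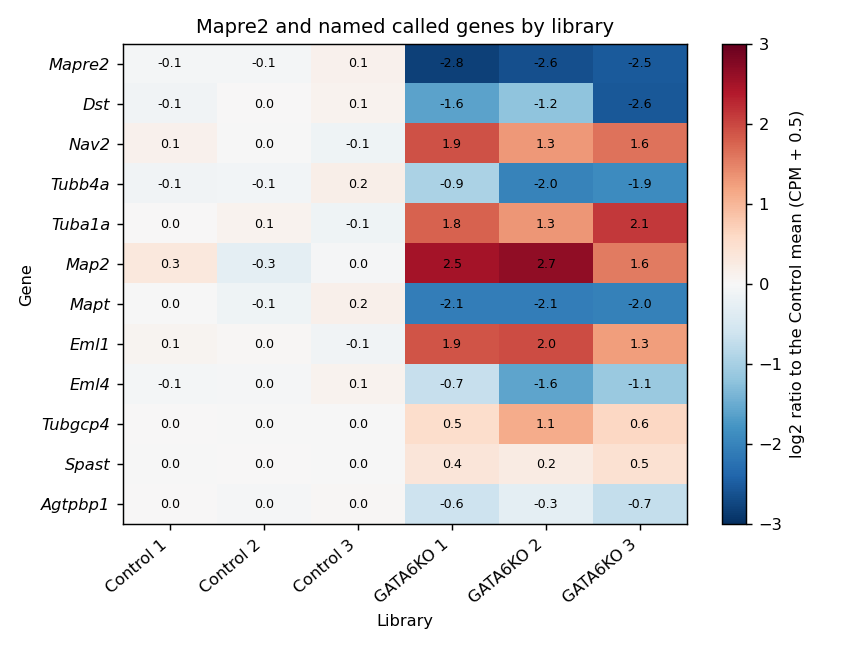
Log2 ratio of each library to the Control mean, from CPM with a pseudocount of 0.5, for Mapre2 and the called genes named by rule from the wider lists. Columns are libraries, and blue is lower and red higher than Control. Mapre2 (-2.81, -2.63 and -2.52 in GATA6KO replicates 1 to 3) and Mapt have GATA6KO columns of nearly one shade, whereas Dst and Eml4 vary between replicates.

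The profile of Mapre2 over the 6 libraries was compared with those of 9081 other tested genes of at least 10 CPM on average, by the root mean square difference of log2 ratios to the Control mean. The most alike were Nectin1, an adhesion molecule of epithelial junctions (0.225), Mtmr11, a myotubularin-related protein (0.229), Ckb, the brain-type creatine kinase (0.268), Gjb2, a gap junction connexin (0.292), and Ank3, the membrane scaffold ankyrin G (0.372). Their log2 fold changes ran from -3.01 (Nectin1) to -2.42 (Ank3), a range that the choice by likeness fixes. Ckb had 27.1, 25.4 and 25.4 CPM in Control and 4.82, 5.05 and 4.44 CPM in GATA6KO replicates 1 to 3. Gjb2 lies on chromosome 14, and its GATA6KO values of 3.31, 3.02 and 6.60 CPM were lowest in the second library. Over groups that stand apart, this measure gives most weight to the size of the difference between them.

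Mapre2 shares chromosome 18 with Gata6 and starts 12.7 megabases after the end of Gata6. Of the 34 genes tested between them, 5 were called higher and 2 lower. Over the whole chromosome 70 of 376 tested genes were called (18.6%, beside 12.4% of all genes), 42 higher and 28 lower, with a median log2 fold change of 0.02. The higher calls include the tested genes of the Pcdhb protocadherin cluster, 13.6 to 13.8 megabases after the Mapre2 start. Their log2 fold changes were 1.97 to 3.61, and they were named after their values were seen. The nearest tested genes after Mapre2 were the zinc-finger genes Zfp397, Zfp35 and Zfp24, within 116 kilobases. Their log2 fold changes were 0.25, 0.28 and 0.60 (adjusted p = 0.109, 0.313 and 0.0595), all above 0 where that of Mapre2 was below. Zfp24 was called by DESeq2 (adjusted p = 0.0119), with library totals (0.0434), with no filter (0.0251) and without GATA6KO replicate 1 or 3 (0.0213 and 0.0453). Zfp397 and Zfp35 were called without GATA6KO replicate 1 (adjusted p = 0.0362 and 0.0419). Before Mapre2 the nearest tested gene, Garem1, an adaptor of growth factor signalling, lay 2452.2 kilobases away (log2 fold change 0.44, adjusted p = 0.0585), followed by Mep1b and the ubiquitin ligase Rnf138 (log2 fold change 0.44, adjusted p = 0.0944). DESeq2 called Garem1 and Rnf138 (adjusted p = 0.0121 and 0.0497), and edgeR called Garem1 with library totals (0.0365) and without GATA6KO replicate 3 (0.0366). Mep1b, the beta subunit of the meprin protease of the brush border, fell from 5.77 ± 0.197 to 1.19 ± 0.617 CPM (log2 difference -2.27 ± 0.41 SE, adjusted p = 0.0187). It was not called without Control replicate 1, 2 or 3 (adjusted p = 0.0848, 0.0815 and 0.0958).

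**Figure D5:**
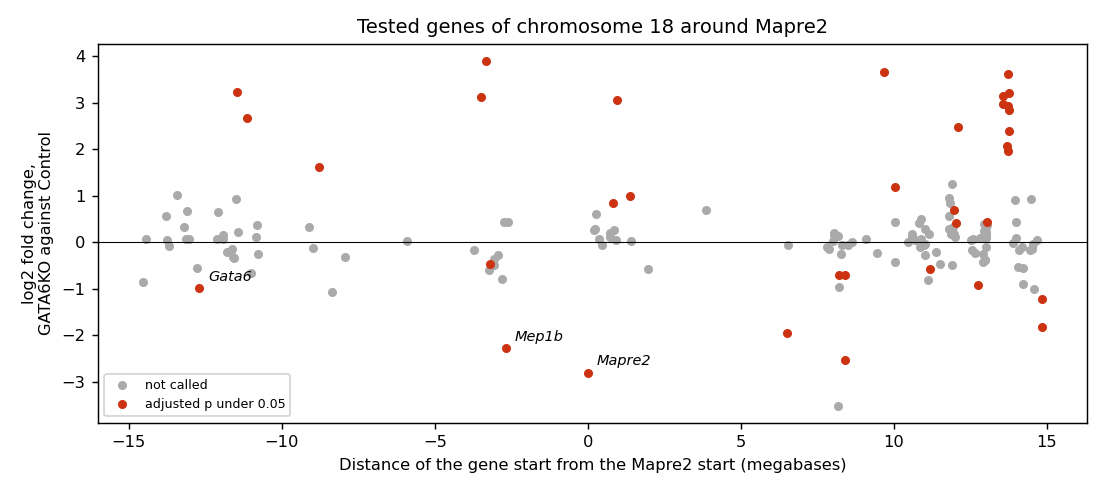
Log2 fold change of GATA6KO against Control for tested genes of chromosome 18 within 15 megabases of the Mapre2 start, by distance of their starts from it. Red points have an adjusted p under 0.05. Mapre2 (-2.80) stands below its nearest neighbours on the right, whose values are above 0, and called genes lie on both sides of 0 along the window.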

How the data were processed

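Poly(A)-selected RNA was made into strand-marking libraries, per the labels' protocols. The authors deposited estimated counts per Ensembl gene as whole numbers, not scaled between libraries. Per the submitters' processing notes, the tool was Salmon 1.3.0 and the build mm10. Not given in the sources used here were the annotation, the step from transcripts to genes and the rounding. Symbols, positions and exon lengths came from GENCODE M21, which matched 54166 of 54418 identifiers.

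Genes were kept by edgeR's filterByExpr (10 counts at the median library size in 3 libraries, 15 in total), which left 14714, and scaled by TMM. The quasi-likelihood test with robust estimation compared GATA6KO with Control, with p-values adjusted by Benjamini and Hochberg's method across the 14714 genes, at a threshold of 0.05. Called means past that threshold, and higher, lower, rose and fell give the direction. The SE was taken as the log2 fold change over the root of the F statistic. The versions were edgeR 4.0.16, DESeq2 1.42.0 and limma 3.58.1 under R 4.3.3. The pipeline was run on simulated counts in which each gene had the same dispersion in both groups. That run does not cover the unequal spread of Control and GATA6KO libraries.

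The 8 genes and the lists were chosen with earlier results of these data known. The rule named all 8 genes, Gata6, Apc, from each list up to 4 called genes reaching 1 CPM in either group (where none was called, its 2 most abundant), the 5 genes most like Mapre2 and its 3 nearest tested neighbours on each side, without predicted or clone-like names among the alike. Alternatives were RLE or library-total scaling, DESeq2, limma-voom, no filter or a stricter one (1 CPM in all libraries of a group), no robust estimation, a replicate block and each library left out.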

Additional observations from a re-analysis of the deposited data

How the results depend on the processing

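The log2 fold change of Mapre2, which chose the set, ran from -2.81 to -2.72 under the 8 alternative fits. The number of the 8 plus-end genes called was 1 under the 8 alternative fits and 1 to 2 with a library left out. The count over all genes went from 1823 to 3238 with DESeq2 and 827 with the replicate block, and it was 332 to 4360 with a library left out (425, 389 and 332 without Control replicates 1, 2 and 3, and 4360 without GATA6KO replicate 1). The wider microtubule genes called went from 13 to 24 with DESeq2 and 7 with the replicate block, and were 4 to 28 with a library left out. Fits with 2 libraries in a group have fewer samples. The cause of the other shifts was not tested. With no filter, 7 wider genes were higher and 4 lower.

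The log2 fold change of Clip1 was -0.0028 with RLE scaling, -0.0028 with DESeq2, -0.0155 with limma-voom and -0.0162 with the replicate block. With a library left out it ran from -0.17 to 0.12 for Clip1, from -0.15 to 0.29 for Clip2 and from -0.0214 to 0.0366 for Apc. None of these was called under any of the fits run.

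Same-numbered libraries did not deviate together (correlations of -0.0103, 0.0744 and -0.0921 for numbers 1 to 3), so the block rests on the number alone; with it, adjusted p was 0.0915 for Gata6, 0.0691 for Tubb4a, 0.0548 for Tubgcp4, 0.131 for Spast, 0.108 for Agtpbp1, 0.0653 for Map4 and 0.089 for Mtus1. Mapre3 had 45 to 110 counts per library, and what limits its precision was not tested. The principal transcript length was added after the data were seen.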

Other observations

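Nav3, a navigator protein like Nav2, varied more between GATA6KO libraries than between groups. Its levels were 8.02, 5.62 and 4.80 CPM in Control against 19.8, 34.9 and 1.47 CPM in GATA6KO (log2 fold change 1.61, SE 0.91, edgeR adjusted p = 0.269). GATA6KO replicate 3 lay below every Control library and replicates 1 and 2 above, and without replicate 3 the gene was called (edgeR adjusted p = 0.017). Kif18b, a plus-end kinesin of mitotic spindles, had a small and even difference, with 49.5, 49.3 and 50.8 CPM in Control and 40.7, 41.2 and 41.2 CPM in GATA6KO (log2 fold change -0.28, SE 0.08, edgeR adjusted p = 0.0646). Stmn1, the tubulin-binding protein stathmin, stood at 162, 165 and 151 CPM in Control and at 278, 196 and 373 CPM in GATA6KO (log2 fold change 0.83, SE 0.22, edgeR adjusted p = 0.0564). The abundant beta-tubulin Tubb4b averaged 1061 ± 5.46 CPM in Control and 782 ± 120.4 CPM in GATA6KO, with 53% of its 31-base stretches shared with other genes (SD, n = 3 each; edgeR adjusted p = 0.0713). These 4 genes were picked after their values were seen, and edgeR with TMM scaling called none of them with all 6 libraries. DESeq2 called Kif18b, Stmn1 and Tubb4b (adjusted p = 0.00754, 0.00402 and 0.0105) but not Nav3 (0.292). EdgeR called Kif18b and Tubb4b without GATA6KO replicate 1 (adjusted p = 0.0356 and 0.0276), and Stmn1 without GATA6KO replicate 2 (0.00844) and with library totals (0.0408).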
